A study of Mus musculus with 6 samples.

Results

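ATAC-seq intervals at 10 genes of the neural crest and of epithelial-to-mesenchymal transition (*Snai1*, *Snai2*, *Twist1*, *Zeb1*, *Zeb2*, *Prrx1*, *Foxd3*, *Tfap2a*, *Tfap2b* and *Tfap2c*) were described in mouse neural stem/progenitor cells (NSPCs) with and without an enhancer cluster of *Sox2*. ATAC-seq uses a transposase to cut accessible DNA, and an interval is a stretch where the authors' peak caller found more reads than the local background. An interval was taken when its strongest summit, the position with the highest fold enrichment over local background, had 1 of the 10 genes as the nearest protein-coding transcription start site (TSS) at a distance of at most 50 kb. This gave 109 intervals of 190365 in the conservative peak lists of the 2 genotypes, with 41 of 82885 parent intervals and 68 of 107480 ΔSRR2–18 intervals. The parent cells were Clone 5B and carried no deletion, and the ΔSRR2–18 cells were Clone 47D, in which the regions from SRR2 to SRR18 downstream of *Sox2* had been removed from both alleles with Cas9 in embryonic stem cells. Both clones were 129S1/Cast F1 Hybrid cells with Sox2-mCherry on the 129 allele, and both were grown as NSPCs in N2B27 medium with EGF and bFGF on poly-d-lysine and laminin. Each genotype was 1 clone with 3 cultures of 30000 cells, and the labels give a depth of 50 to 60 M reads per culture. The deposited lists pool the cultures, so the genotypes were compared as single values with no test, and clone and deletion cannot be told apart.

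Neural crest cells arise at the border of the neural plate, lose their epithelial contacts and migrate as mesenchymal cells that later form peripheral neurons, glia, pigment cells and facial skeleton. TFAP2 factors and FOXD3 help to specify this border and the crest, whereas the zinc-finger repressors of the SNAI and ZEB families and the bHLH factor TWIST1 switch off epithelial genes such as E-cadherin and drive the transition. PRRX1 is a homeodomain factor of mesenchyme. NSPCs are neuroepithelial cells and are not a neural crest population, although ZEB factors are also present in neural progenitors.

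The parent list held 4 intervals between the start of SRR2 and the end of SRR18 (chr3:34653596-34669292, mm10) and the ΔSRR2–18 list held 0. All 8 NSPC marker promoters that were examined had an interval within 1 kb of the TSS in both lists (*Nes*, *Sox1*, *Pax6*, *Fabp7*, *Msi1*, *Hes5*, *Notch1* and *Slc1a3*). Their summit reads relative to the genome-wide background had a median of 92.3 in the parent list (range, 47.2 to 158) and 29.6 in the ΔSRR2–18 list (12.1 to 73.1), and were lower in ΔSRR2–18 at 8 of 8. Most promoters were lower by this measure. Of the 14355 overlapping pairs of intervals at promoters, 18.9% were higher in ΔSRR2–18, and the median was 0.73 of the parent level. Promoter intervals were present at 1 of 6 pluripotency markers in both lists, at 1 and 3 of 4 neuronal markers, at 1 and 2 of 4 endoderm markers, at 0 of 4 muscle and heart markers in both lists, and at 1 of 4 blood and endothelial markers in both lists, with the parent list first. Accessibility at a promoter is not expression, and in bulk cultures a larger share of cells with an open site and a more open site in every cell cannot be told apart. The part of other cell types in the results was not tested. Summit reads are the pooled pileup height that the deposited fold enrichment and −log10 p imply. Their lowest background, 38.8 reads for parent and 19.7 for ΔSRR2–18, differed by 1.98 times, whereas the labels give the same depth for both genotypes, and the pooled lists hold nothing to settle this. Summit reads were divided by the lowest background of their list before the genotypes were compared (called depth-scaled here), so every such fold rests on this factor and is 1.98 times the fold of the reads as they stand. Ranks within a list are given as a description, and since the lists differ in length and make-up, equal or unequal ranks do not show whether a site changed.

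Windows of 100 bases to each side of a summit are printed here for 6 intervals, because the results on promoters, on genes open in a single genotype and on motifs turn on them. All are the plus strand of mm10 (GRCm38), which on 1 allele of each autosome differs from the *M. castaneus* DNA of these cells. Capitals mark a match to the E-box CACCTG that SNAI and ZEB factors bind in the first, to the AP-1 motif TGACTCA in the second, to the E-box CATCTG of TWIST factors in the third, to the TFAP2 motif GCCNNNGGC in the fourth and to the SOX motif ACAATG, read here on the minus strand, in the fifth. The sixth held a match to none of the 9 motifs searched.
*Snai1* promoter, chr2:167537954-167538154: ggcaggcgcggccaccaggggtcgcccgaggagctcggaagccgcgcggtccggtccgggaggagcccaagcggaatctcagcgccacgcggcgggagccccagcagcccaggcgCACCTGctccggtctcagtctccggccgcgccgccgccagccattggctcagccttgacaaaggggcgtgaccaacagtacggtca
*Prrx1* deletion-only, chr1:163292054-163292254: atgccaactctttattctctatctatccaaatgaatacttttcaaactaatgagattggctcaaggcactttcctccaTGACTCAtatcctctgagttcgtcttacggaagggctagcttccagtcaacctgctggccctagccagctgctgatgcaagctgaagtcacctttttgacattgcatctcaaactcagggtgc
*Tfap2b* deletion-only, chr1:19241422-19241622: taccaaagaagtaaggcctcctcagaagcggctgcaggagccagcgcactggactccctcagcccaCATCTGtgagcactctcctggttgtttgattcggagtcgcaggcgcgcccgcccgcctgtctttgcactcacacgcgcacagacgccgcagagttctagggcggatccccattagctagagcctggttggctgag
*Tfap2c* deletion-only, chr2:172550513-172550713: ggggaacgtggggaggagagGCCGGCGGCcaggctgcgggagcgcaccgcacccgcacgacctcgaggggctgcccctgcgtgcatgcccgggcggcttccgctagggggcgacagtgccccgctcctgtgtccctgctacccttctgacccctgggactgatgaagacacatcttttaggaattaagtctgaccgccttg
*Snai1* parent-only, chr2:167562275-167562475: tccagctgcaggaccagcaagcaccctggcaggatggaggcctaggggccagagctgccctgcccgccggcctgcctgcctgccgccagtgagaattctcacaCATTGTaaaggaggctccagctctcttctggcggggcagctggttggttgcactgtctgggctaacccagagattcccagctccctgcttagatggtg
*Foxd3* parent-only, chr4:99626536-99626736: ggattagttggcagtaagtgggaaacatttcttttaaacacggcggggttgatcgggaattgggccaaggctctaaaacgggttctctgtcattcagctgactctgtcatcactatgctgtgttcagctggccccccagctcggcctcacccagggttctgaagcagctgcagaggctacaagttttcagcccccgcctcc

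The 10 genes had more intervals in ΔSRR2–18 than in parent NSPCs. Of the 68 ΔSRR2–18 intervals, 42 overlapped no parent interval by even 1 bp (deletion-only, 61.8%, 95% Wilson interval 49.9 to 72.4), whereas 53.0% of all 64666 ΔSRR2–18 intervals within 50 kb of a protein-coding TSS were deletion-only. Of the 41 parent intervals, 15 were parent-only (36.6%, 23.6 to 51.9), against 45.0% of all 55017 parent intervals within that distance. The intervals cover counting error only, and both include the share over all genes. The other 26 intervals of each list overlapped and formed 26 pairs. Each of the 10 genes had more deletion-only than parent-only intervals, as did 45.1% of the 17643 genes with an interval, while 27.3% of those had fewer and 27.6% as many. The gene-by-gene order was less stable than the totals. It held for all 10 genes with 50% reciprocal overlap. A depth-scaled −log10 p of at least 20 removed no interval at the 10 genes, so it could not change the order. The order held for 9 genes in the optimal lists, for 8 within 10 kb and for 7 with an IDR score of at least 830. It held for 8 with lists of equal length and for 5 when the nearest TSS of any gene type was used. With the nearest TSS of any gene type, 15 of 29 ΔSRR2–18 intervals were deletion-only, a share below the 59.6% over all genes.

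**Figure D1:**
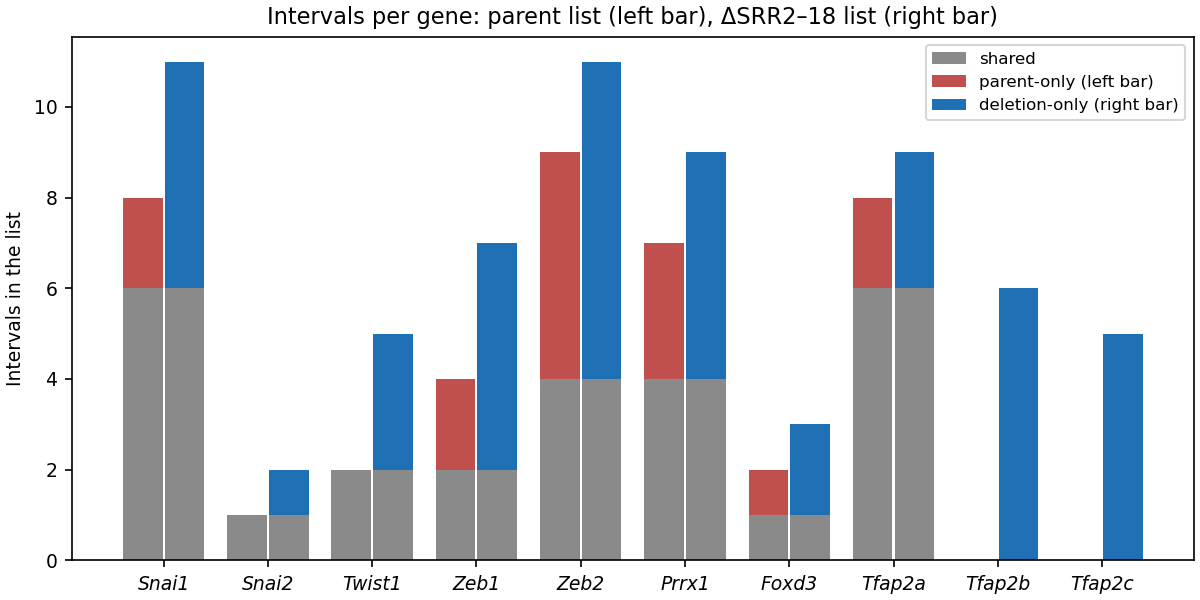
Intervals per gene in the conservative parent list (left bar) and ΔSRR2–18 list (right bar), with shared intervals in grey, parent-only in red and deletion-only in blue; the bars are counts and carry no error. *Tfap2b* and *Tfap2c* have 0 parent intervals against 6 and 5, and the blue part exceeds the red part at all 10 genes.

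*Tfap2b* and *Tfap2c*, which encode AP-2 factors of the crest and surface ectoderm, had 0 parent intervals and 6 and 5 deletion-only intervals. Of the 17643 genes with an interval, 1516 (8.59%) had 0 parent intervals, and 109 (0.618%) had 0 parent and at least 5 deletion intervals. This limit of 5 equals the count of *Tfap2c* itself, so the share describes these genes and is no test of them. At *Tfap2b* (chr1:19208914-19238576, plus strand), the summit reads were 218 in the exon 205 bp past a TSS, 183 and 228 in introns at 1437 and 20563 bp, 166 in an intron at 21935 bp, 445 at 29468 bp and 93 at 29697 bp upstream. The interval at 29468 bp, whose window is the third one printed, lay past the end of the gene and had a fold enrichment of 16.9, and the other 5 lay between 4.29 and 6.21. At *Tfap2c* (chr2:172549593-172558622, plus strand), an interval of 451 reads lay 100 bp upstream of the first TSS and one of 731 reads lay in an intron, 169 bp upstream of a second TSS. The other 3 *Tfap2c* intervals had 295 reads at 2271 bp upstream, 369 reads at 23478 bp upstream with a fold enrichment of 17.9, and 105 reads at 39894 bp downstream. Both genes thus had an accessible promoter in the ΔSRR2–18 list alone, and none of the 11 intervals overlapped the longer optimal parent list either. The 0 in the parent list is a list without a call and not a count of 0 reads.

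*Tfap2a* (chr13:40715302-40738376, minus strand), an AP-2 gene of the early crest, was accessible in both genotypes, with 6 shared intervals, 2 parent-only and 3 deletion-only. At its internal promoters the shared interval at 414 bp upstream of a TSS had 2244 parent and 572 ΔSRR2–18 reads, which is 0.50 of the parent level after scaling for depth, and the one on another TSS had 1225 and 527 reads, or 0.85, which becomes 1.16 when shared promoters are set equal. The parent-only interval 742 bp past a TSS had 772 reads with a fold enrichment of 2.51. The strongest ΔSRR2–18 interval, 5889 bp past a TSS, had 1355 reads against 2079 in the parent, a depth-scaled fold of 1.29 (0.65 with no scaling). The weak interval at 23640 bp had 231 against 149 reads, a fold of 3.06 (1.55 with no scaling). The folds of the 6 pairs at *Tfap2a* thus ranged from 0.47 to 3.06 after depth scaling. The strongest deletion-only interval lay in an intron at 8026 bp with 656 reads, and the strongest parent-only interval other than that at the promoter lay at 16559 bp with 559 reads.

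**Figure D2:**
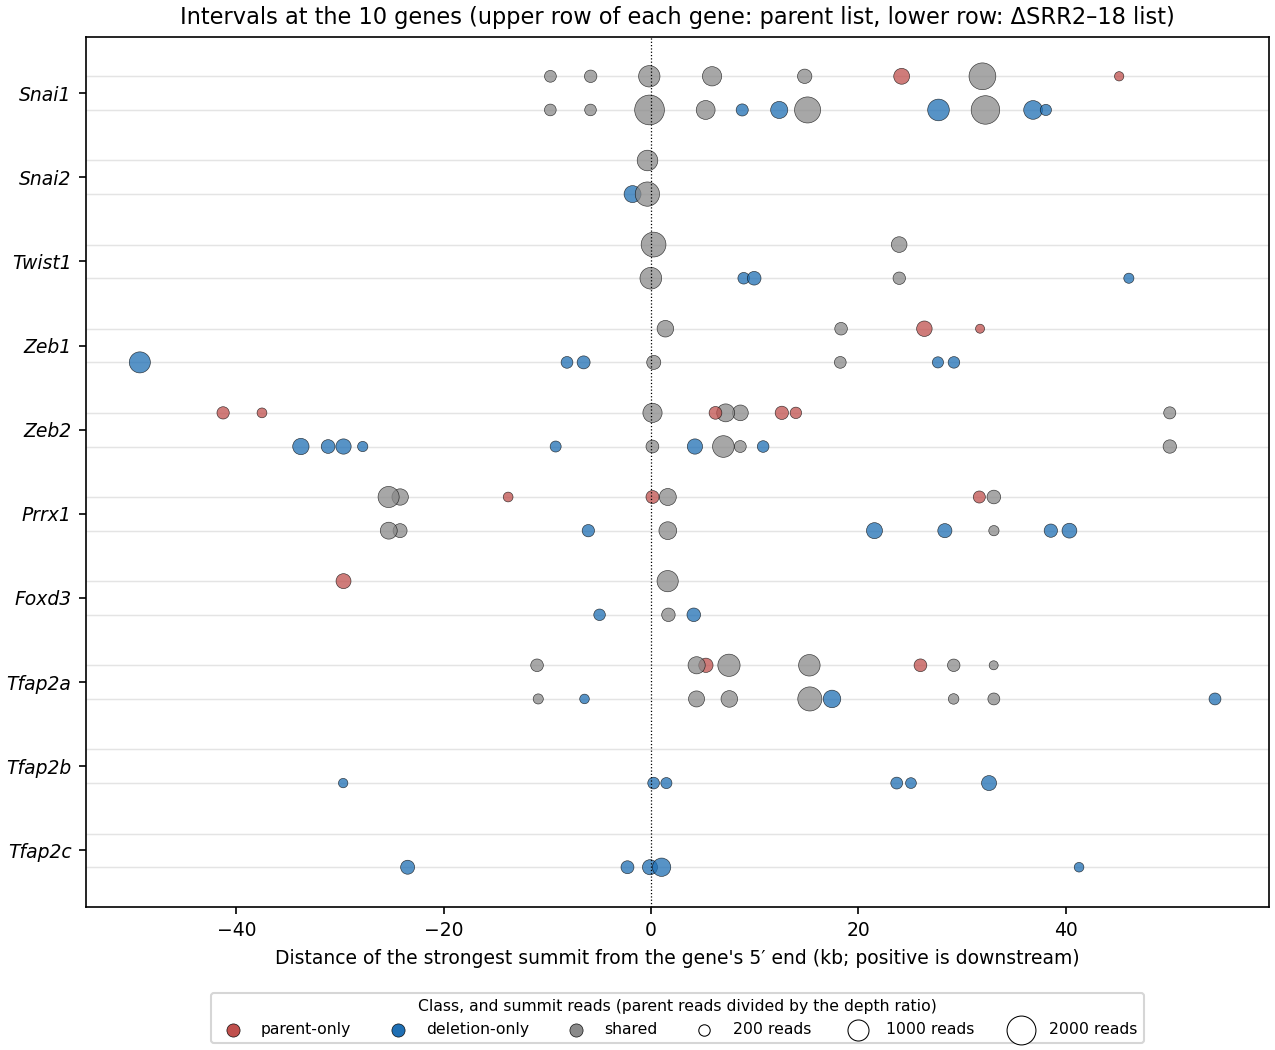
Position of every interval at the 10 genes, as the distance in kb of its strongest summit from the 5′ end of the gene, with the parent list in the upper row of each gene and the ΔSRR2–18 list in the lower row. Point area follows summit reads, with parent reads divided by 1.98, and colour gives the class. Blue points stand alone at *Tfap2b* and *Tfap2c* and cluster upstream of *Zeb2*, whereas most intervals at *Snai1* and *Tfap2a* are grey.

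*Snai1* (chr2:167538195-167542814, plus strand), the gene of the Snail repressor, had higher depth-scaled reads in ΔSRR2–18 at its promoter and at a site downstream. The interval at its promoter had 2049 reads in the parent list, with the summit 166 bp upstream of the TSS, and 2134 reads in the ΔSRR2–18 list, with the summit 141 bp upstream. This was 2.06-fold the parent level after depth scaling (95% counting interval, 1.94 to 2.19), 2.82-fold with shared promoters set equal and 1.04-fold with no scaling, and the rank by summit reads was the top 20.6% of parent and the top 2.80% of ΔSRR2–18 intervals. The E-box of the first printed window starts 15 bp past the ΔSRR2–18 summit. The shared interval 14824 bp downstream had 783 parent reads, and its ΔSRR2–18 counterpart at 15103 bp had 1606, a depth-scaled fold of 4.05 (3.72 to 4.41), the highest among the 26 pairs, and 2.05-fold with no scaling. Its depth-scaled local background was also 3.55-fold that in the parent. Reads of the interval itself can enter this background, and the lists do not show how far, so it is no separate measure of the surroundings. The interval with the most parent reads lay in an intron of *Gm11476* at 31970 bp, with 3371 parent and 1949 ΔSRR2–18 reads, or 1.14-fold (0.58 with no scaling). The 3 other pairs at *Snai1* had folds of 0.97, 0.81 and 0.95, which become 1.33, 1.11 and 1.30 when shared promoters are set equal. Among the 5 deletion-only intervals the strongest had 1066 reads at 27733 bp. The stronger of the 2 parent-only intervals had 1013 reads at 24180 bp, and its window, the fifth printed, holds a SOX motif 3 bp from the summit.

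*Snai2* (chr16:14705852-14709385, plus strand), which encodes Slug, had a single parent interval, at 339 bp upstream of the TSS, with 1882 reads. In ΔSRR2–18 it had 1378 reads and a depth-scaled fold of 1.45 (1.35 to 1.55), or 0.73 with no scaling, with a rank by reads in the top 22.4% of the parent list and the top 8.76% of the ΔSRR2–18 list. Its fold enrichment over local background went the other way, 17.1 in parent and 12.5 in ΔSRR2–18, since the depth-scaled local background was 1.98-fold that in the parent. A deletion-only interval of 602 reads lay 1781 bp upstream.

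*Twist1* (chr12:33957671-33959829, plus strand) had 2850 parent and 1072 ΔSRR2–18 reads at its promoter, a depth-scaled fold of 0.74, which becomes 1.02 when shared promoters are set equal. Its rank by reads was the top 13.9% in both lists. A second shared interval 23938 bp downstream had 977 and 264 reads, or 0.53-fold. The 3 deletion-only intervals had 214 reads at 8943 bp, 347 at 9952 bp and 130 at 46095 bp.

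The ZEB genes had intervals of all 3 classes. *Zeb1* (chr18:5591860-5775467, plus strand) had 1130 parent and 372 ΔSRR2–18 reads in the interval over its start, but the summits were 1123 bp apart, with the ΔSRR2–18 summit 260 bp and the parent summit 1383 bp past the TSS. The strongest *Zeb1* interval in ΔSRR2–18 was deletion-only, at 49315 bp upstream in an intron of *Gm10125*, with 1004 reads and a fold enrichment of 23.1, and it was also the interval nearest to the distance limit. The strongest parent-only interval lay in a *Zeb1* intron at 26367 bp with 952 reads and held a SOX motif. *Zeb2* (chr2:44983632-45117395, minus strand) had 3 promoter intervals in each list. At the first TSS of the gene the shared interval had 1606 parent and 288 ΔSRR2–18 reads, a fold of 0.35, with a rank in the top 25.9% and 58.9%. At an internal TSS the shared interval had 1365 and 1067 reads, a fold of 1.54, with a rank in the top 29.7% and 14.0%. These starts of *Zeb2* therefore stood on opposite sides of the parent level under depth scaling. With shared promoters set equal the folds were 0.48 and 2.11, and with no scaling both were below it, at 0.18 and 0.78. The third promoter interval was parent-only in one place (560 reads, 444 bp upstream of a TSS, in an exon of *Zeb2os*) and deletion-only in another (465 reads, 121 bp past a TSS, in an exon that *Zeb2* and *Zeb2os* share). 4 deletion-only intervals lay in a row from 27812 to 33776 bp upstream, with 138, 466, 352 and 552 reads, and the parent list had no interval among them. Farther upstream lay parent-only intervals of 226 reads at 37530 bp and 505 reads at 41278 bp. The strongest parent-only interval at *Zeb2* had 636 reads and lay in an intron 5513 bp past a TSS. Another, of 401 reads, lay in an intron at 6866 bp.

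The mesenchymal homeobox gene *Prrx1* and the crest gene *Foxd3* were the genes without an interval of the conservative ΔSRR2–18 list within 1 kb of a TSS. *Prrx1* (chr1:163245119-163313710, minus strand) had a parent-only interval in its exon 101 bp past the TSS, with 601 reads and a fold enrichment of 4.18. It was the single parent-only interval of the 10 genes that the optimal ΔSRR2–18 list overlapped, so the site was called there with the other threshold. The neighbouring shared interval at 1577 bp had 1202 and 674 reads, or 1.11-fold (0.56 with no scaling), and was the strongest *Prrx1* interval in ΔSRR2–18. The shared interval with the most parent reads, 25313 bp upstream, had 1990 and 601 reads, or 0.60-fold. The strongest of the 5 deletion-only intervals lay in a *Prrx1* intron at 21514 bp, with 523 reads and a fold enrichment of 15.4, and the AP-1 match of the second printed window starts 22 bp before its summit. *Foxd3* (chr4:99656299-99658622, plus strand) had no interval within 1 kb of its TSS in either list. Its shared interval lay in the exon 1605 bp past the TSS, with 2018 parent and 332 ΔSRR2–18 reads, a fold of 0.33 (0.29 to 0.37), the lowest of the 26 pairs, and 0.44 with shared promoters set equal. Its parent-only interval 29663 bp upstream, the sixth printed, had 871 reads and a fold enrichment of 18.0, and its 2 deletion-only intervals had 210 reads at 4963 bp upstream and 341 reads at 4124 bp downstream.

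The 26 shared pairs had the same median ratio between the genotypes as shared intervals at large, but not the same level. Their median rank by summit reads was the top 33.6% in the parent list and 48.1% in ΔSRR2–18, against 28.5% and 28.8% over all pairs. The median log2 ratio of depth-scaled summit reads, ΔSRR2–18 over parent, was −0.30 with an SD of 0.91, and it was −0.30 over all 30711 pairs within 50 kb of a TSS. At least 2-fold higher in ΔSRR2–18 were 3 of 26 pairs (12.7% of all pairs), namely the *Snai1* promoter, the *Snai1* interval at 14824 bp and the *Tfap2a* interval at 23624 bp, and at least 2-fold lower were 5 of 26 (15.7% of all pairs), which lay at *Foxd3*, *Prrx1*, *Tfap2a* and *Zeb2*. The direction of the median depends on the scaling: the 14355 shared promoter pairs had a median of −0.45, and with this set to 0 the median over the 26 pairs was 0.15, with 15 of 26 pairs above 0 (59.8% of all pairs) instead of 9 (34.2%), 4 at least 2-fold higher (19.2%) and 2 at least 2-fold lower (7.92%). All pairs then had the same median of 0.15. With no scaling the median was −1.29 over the 26 pairs and −1.28 over all, and the 3 pairs above 0 (12.9% of all) were the 3 named above. By rank within each list, 10 of 26 pairs stood higher in ΔSRR2–18 by summit reads (45.0% of all pairs) and 7 of 26 by fold enrichment (41.0%).

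**Figure D3:**
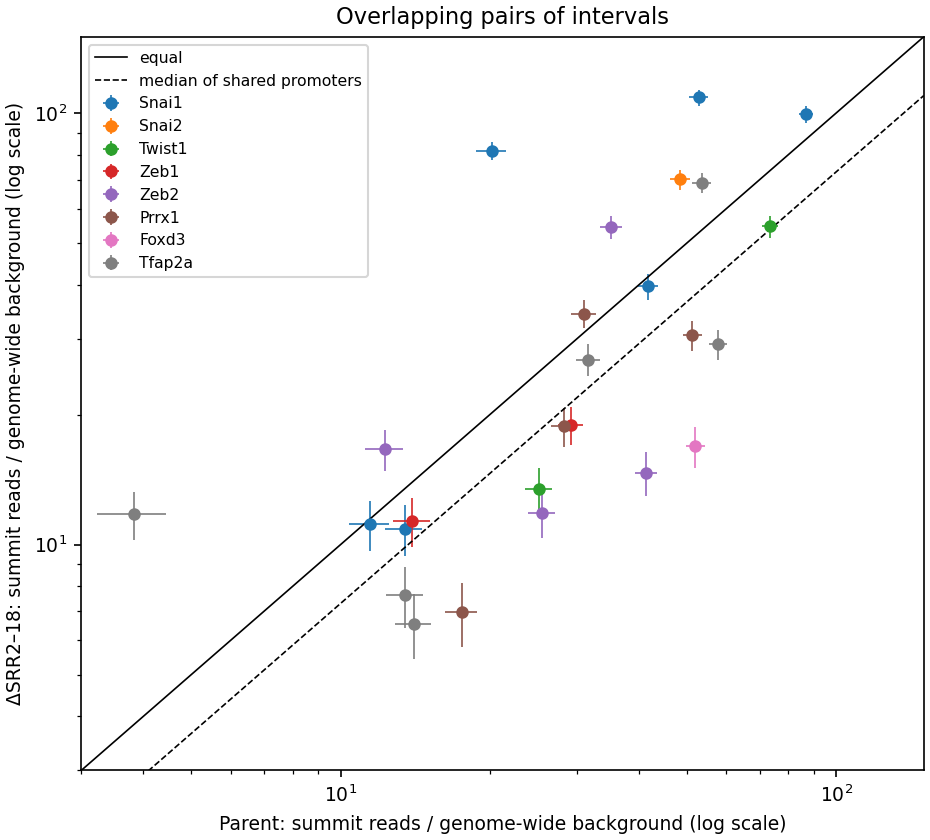
Summit reads divided by the genome-wide background of the list for the 26 overlapping pairs, parent on the x axis and ΔSRR2–18 on the y axis, both on log scales, with bars for the 95% counting error. The solid line marks equal values and the dashed line the median of shared promoters. 2 of the *Snai1* points lie well above both lines and the *Foxd3* point lies well below them.

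The genotype-specific intervals were mostly distal. Of the 42 deletion-only intervals, 4 (9.52%) had their summit within 1 kb of a TSS against 5.99% of all deletion-only intervals within 50 kb, and 22 were intergenic, 16 intronic and 4 exonic. The 4 promoter intervals belonged to *Tfap2b*, *Tfap2c* (2) and *Zeb2*. Of the 15 parent-only intervals, 3 (20.0%) were at promoters, those of *Prrx1*, *Tfap2a* and *Zeb2*, against 4.97% of all. The optimal parent list, overlapped 0 of the 42 deletion-only intervals (3.93% of all), and the optimal ΔSRR2–18 list overlapped 1 of the 15 parent-only ones (7.13%). Deletion-only intervals had 93 to 1066 summit reads with a median of 297.5, close to the 305 of all such intervals. Multiplied by 1.98, 39 of the 42 (and 32598 of all 34301 deletion-only intervals) would have more reads than the 10th percentile of the parent list, 227 reads, and with no scaling 26 of the 42 had (64.9%). Divided by 1.98, 11 of the 15 parent-only intervals (76.7% of all) would pass the same percentile of the ΔSRR2–18 list, 140 reads, and with no scaling all 15 did (99.6%). The distance limit cut off strong intervals too. The nearest parent interval outside it was at *Prrx1*, 56153 bp away with 2504 reads, and the farthest inside was at *Snai1*, 45159 bp away with 178 reads. In ΔSRR2–18 the nearest outside was at *Tfap2c*, 52617 bp away with 716 reads, and the farthest inside was that at *Zeb1* described above.

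Short motifs were searched, as exact letters on both strands, in the 100 bp to each side of the strongest summit. The AP-1 motif TGACTCA was present in 12 of the 42 deletion-only intervals (28.6%) and in 42.6% of all 34301 deletion-only intervals, and in 0 of the 15 parent-only intervals (2.40% of all 24785). The 12 lay at *Snai1* (3), *Zeb2* (3), *Prrx1* (2), *Zeb1* (2), *Tfap2a* (1) and *Tfap2b* (1), none of them within 1 kb of a TSS. At *Snai2*, *Twist1*, *Foxd3* and *Tfap2c* no deletion-only interval had this match. The SOX motif ACAATG was present in 2 of 15 parent-only intervals (13.3%, against 15.2% of all), at *Snai1* and *Zeb1*, and in 2 of 42 deletion-only intervals (4.76%, against 10.6%), at *Tfap2a* and *Zeb2*. The TFAP2 motif GCCNNNGGC was present in 5 deletion-only intervals (11.9%, against 6.61%), 2 each at *Tfap2c* and *Snai1* and 1 at *Foxd3*, and the E-box CACCTG likewise in 5 (11.9%, against 7.58%), 2 each at *Twist1* and *Zeb1* and 1 at *Tfap2c*. The E-box CATCTG was present in 9 (21.4%, against 21.8%) and the TEAD motif CATTCC in 6 (14.3%, against 23.5%). The homeodomain motif TAATTA was present in 3 parent-only intervals (20.0%, against 5.96%), 2 of them at *Prrx1* and 1 at *Tfap2a*, and in 0 deletion-only intervals (2.40%). The FOX motif TGTTTAC was present in 1 parent-only (3.08% of all) and 2 deletion-only intervals (3.02% of all), and the LEF/TCF motif ATCAAAG in 0 of both (2.47% and 2.48% of all). The letters of the motifs can overlap by chance and a match is not a bound site.

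**Figure D4:**
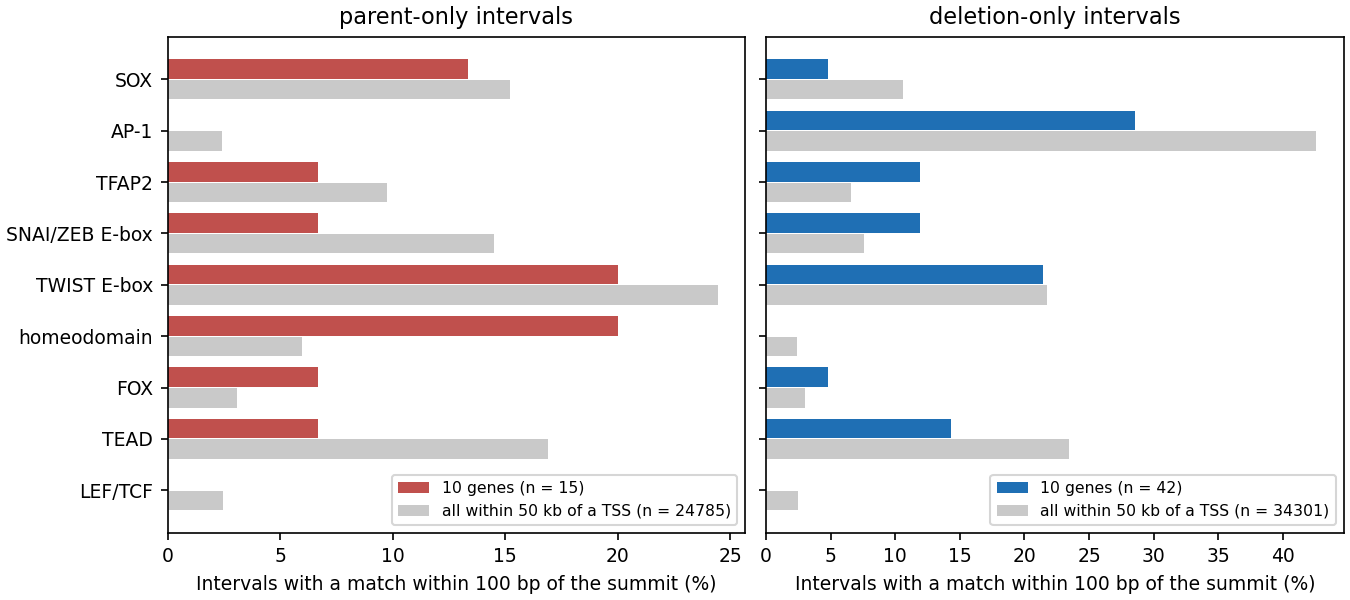
Share of parent-only (left) and deletion-only (right) intervals with an exact motif match within 100 bp of the summit, for the 10 genes (coloured) and for all intervals of the class within 50 kb of a TSS (grey). The AP-1 bar of the deletion-only intervals is 28.6% for the 10 genes and 42.6% for all, and the homeodomain bar of the parent-only intervals is 20.0% and 5.96%.

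Other genes of the same programme were counted from 4 lists. Over all genes with an interval, 53.0% of ΔSRR2–18 intervals were deletion-only and 45.0% of parent intervals parent-only. Of those genes, 45.1% had more deletion-only and 27.3% more parent-only intervals. 5 family relatives (*Snai3*, *Twist2*, *Tfap2d*, *Tfap2e* and *Prrx2*) had 12 deletion-only of 19 and 5 parent-only of 12 intervals, and 4 of the 5 genes had more of the former, *Twist2* with 5 against 4 and *Prrx2* with 5 against 1. 17 other neural crest genes had 68 deletion-only of 116 intervals (58.6%) and 47 parent-only of 95 (49.5%), with 10 genes having more deletion-only intervals and 5 having more parent-only ones. Among them, *Mitf*, the regulator of pigment cells, had 15 deletion-only and 8 parent-only intervals, *Ets1*, an ETS factor of migrating crest, had 8 and 7, and *Sox8*, a SOXE factor of the crest, had 2 deletion-only and 5 parent-only intervals. 16 mesenchymal effector genes had 73 deletion-only of 119 intervals (61.3%) and 33 parent-only of 78 (42.3%), and 11 of the 16 had more deletion-only intervals. The fibrillar collagen genes *Col3a1* and *Col1a2* had 11 and 10 deletion-only intervals and 1 parent-only interval each, and *Cdh11*, a cadherin of mesenchyme, had 8 and 0. N-cadherin (*Cdh2*), which neuroepithelium also uses, had 12 parent-only and 8 deletion-only intervals. All 16 had a promoter interval in ΔSRR2–18 and 11 in the parent list, against 73.3% and 69.3% of all genes with an interval. The 14 epithelial genes that SNAI and ZEB factors repress stood on the same side, with 29 deletion-only of 42 intervals (69.0%) and 5 parent-only of 18 (27.8%). Of these, 10 had more deletion-only intervals and 0 had fewer. *Cdh1*, the E-cadherin gene, had 4 deletion-only and 1 parent-only interval, *Cldn4* and *Krt18* had 4 and 0, and *Krt8* had 4 and 2. 8 of the 14 had a promoter interval in ΔSRR2–18 and 4 in the parent list. Over all genes with an interval, 8.12% had a promoter interval in the ΔSRR2–18 list alone and 4.21% in the parent list alone. This compares with 5 and 1 of the 14 epithelial genes and 5 and 0 of the 16 effector genes. Of the 14 epithelial genes, 12 had an interval, whereas the shares over all genes leave out genes without one.

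**Figure D5:**
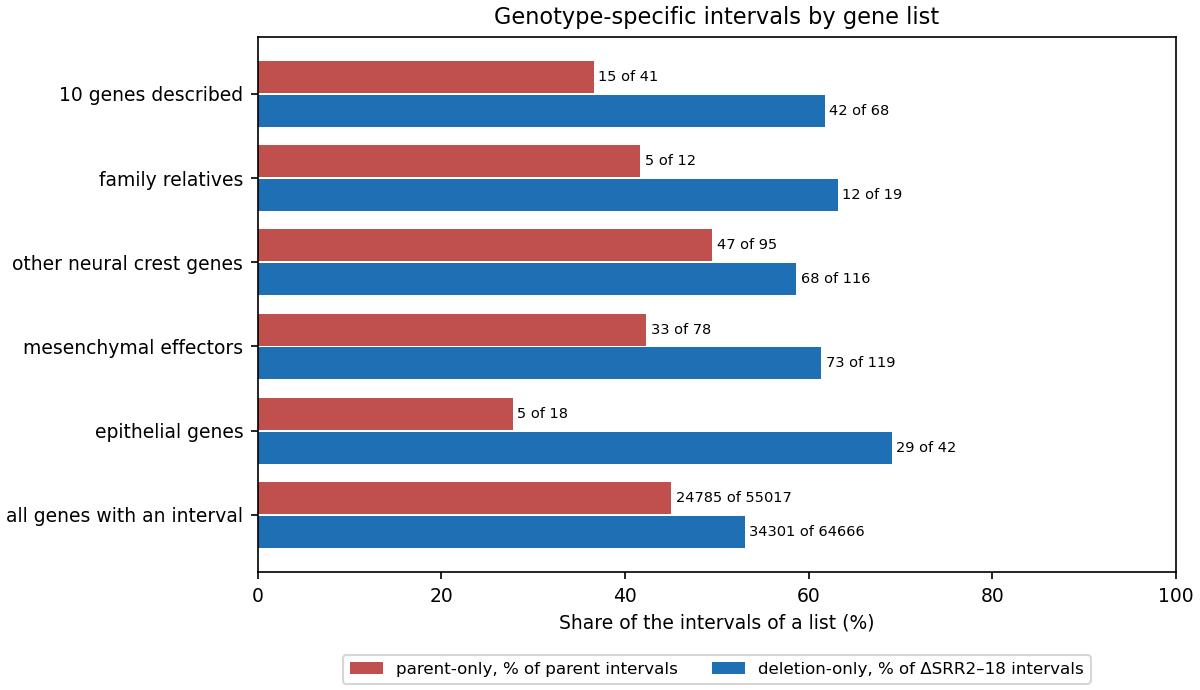
Parent-only intervals as a share of the parent intervals (red) and deletion-only intervals as a share of the ΔSRR2–18 intervals (blue) of each gene list, in %, with the counts beside the bars. The blue bars range from 58.6% to 69.0% over the 5 lists, against 53.0% for all genes, and the red bar of the epithelial genes is the shortest, at 27.8%.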

How the data were processed

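The authors made ATAC-seq libraries of 3 cultures per genotype, processed them with the ENCODE pipeline, called peaks with MACS2 and kept peaks by IDR, which compares ranks between replicates. The labels name mm10 and deepTools. The authors deposited 4 pooled narrowPeak lists, with an IDR score, a fold enrichment (ratio to local background), a −log10 p and q, and a summit per peak. The 2 conservative lists were used.

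Distinct intervals took the values of their summit of highest fold enrichment. Summit reads and local background were solved from fold enrichment (pseudocount 1) and −log10 p under a Poisson model. Reads within 0.05 of whole numbers resulted for 99.9993% of parent and 100% of ΔSRR2–18 peaks. TSSs came from GENCODE M21 basic (21924 protein-coding genes) and sequences from GRCm38. Python 3.11.15, numpy 2.4.6, pandas 2.3.3 and scipy 1.17.1 were used, and the steps were tested on simulated data. Each of the 10 genes is described by its promoter intervals, the strongest interval of each list and the strongest genotype-specific intervals, and other intervals were named after their values were seen. Members, lists and motifs were chosen with earlier results of these data known. The values of 1 gene of the lists are not reported here.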

Additional observations from a re-analysis of the deposited data

How the results depend on the processing

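Of 36 values recomputed under the alternatives, 29 stayed within 1.5 times the count, 1 SD of the median or the binomial interval of the share given in the report. Among the 29 are the counts with a depth-scaled −log10 p of at least 20 and those with overlapping intervals merged. Both settings left 15 parent-only, 42 deletion-only and 26 shared parent intervals as they were, so neither bears on stability. Of the other 7 values, 6 came from settings that take fewer intervals by construction. With a TSS distance of at most 10 kb there were 5 parent-only, 19 deletion-only and 15 shared parent intervals, and with the nearest TSS of a gene of any type there were 5, 15 and 14. Under the latter *Foxd3* and *Zeb1* had no interval left, and *Prrx1* had 2 parent-only and 1 deletion-only. With lists of equal length by −log10 p there were 19 parent-only of 41 and 29 deletion-only of 51 intervals (51.4% and 47.9% over all genes). With an IDR score of at least 830 there were 17 of 37 and 34 of 54 (44.9% and 52.5% over all genes). In both settings *Tfap2a* and *Zeb2* had more parent-only than deletion-only intervals. *Tfap2b* and *Tfap2c* had 0 parent intervals under every alternative run, but their deletion-only counts were less stable. These fell from 6 and 5 to 2 and 3 with lists of equal length, and to 2 and 3 within 10 kb. They were 4 and 4 with the IDR limit, and 2 and 4 with the nearest TSS of any gene type. Both genes were thus below the limit of 5 deletion intervals in each of these settings. In the optimal lists the counts were 5 and 6. The seventh was the median log2 ratio over the shared pairs with no depth scaling, −1.29, a setting added after the data were seen. This median was −0.11 by fold enrichment, −0.31 in the optimal lists, −0.45 over the 20 pairs with summits within 150 bp and 0.15 after scaling by shared promoters. No paired analysis was possible because the lists are pooled over cultures, and for the same reason leaving out each culture was not run. The AP-1 share of deletion-only intervals lay between 26.2% and 31.6% with a window of 50 bp and outside promoters, and the SOX share of parent-only intervals was 6.67% and 16.7%, inside its wide binomial interval of 3.74% to 37.9%.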
